A study of Equus caballus with 6 samples.

Results

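The proteasome genes of the horse were followed across 6 tissue regions of the developing and the adult joint. A probe was taken as a proteasome probe when its gene, found from the array's annotation by symbol, gene number or full name, was PSMA, PSMB, PSMC, PSMD, PSME, PSMF or PSMG followed by a number. This rule found 90 of the 43603 probes on the array, and they belong to 48 of the 13602 genes that could be named. The rule itself uses no measured signal, but it was chosen with earlier results of these data known.

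The samples were laser-captured from cryosections of 10 µm and hybridised to single-colour Agilent horse arrays, with 1 array for each region and no replicate. The 3 adult regions came from the articular cartilage of the stifle of a horse aged 15 years, and they are the superficial zone (AACS, the outer 10% of the depth), the middle zone (AACM, 20 to 30%) and the deep zone (AACD, 50 to 90%). The 3 fetal regions came from the hindlimb at gestational day 40, and they are the intermediate interzone (II), the outer interzone (OI) and the transient embryonic cartilage (EC). The interzone is the strip of cells at a future joint, and the transient cartilage is the template later replaced by bone. No treatment or genetic change is given for any region, and the sources used here do not give how many animals or capture areas stand behind each. The RNA was amplified by a global PCR protocol and 250 ng of cDNA was labelled per array. The fetal samples were hybridised on slide 1 and the adult samples on slide 2, so that stage and slide cannot be told apart. With 1 array per region no p-value is given. A lower signal from captured tissue cannot tell fewer expressing cells from less RNA per cell.

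The proteasome is the large protease complex that degrades proteins marked with ubiquitin. Its core particle is a stack of rings, with outer rings of alpha subunits that gate the entrance and inner rings of beta subunits that hold the catalytic sites. A regulatory particle caps the core: its base of ATPases unfolds substrates and feeds them in, and its lid removes ubiquitin. Dedicated chaperones build these parts, other activators can replace the cap, and cells exposed to interferon exchange catalytic beta subunits for immunoproteasome subunits. Chondrocytes use this system, like other cells, to turn over regulators and misfolded proteins.

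Each probe is a strand of 60 bases. The following are shown because the largest differences rest on them, or because several probes of a gene can be compared. Positions count bases of the transcript that the array's design names, and the sequences are those of the scanner files, 5′ to 3′. Capitals mark the stretch that neighbouring probes of one gene share, which is 55 bases for the PSMD9 pair starting at bases 851 and 856, and 56 bases for the PSMG4 pair starting at 134 and 138. Sequences without capitals share no such stretch with another sequence shown. The reported probe of PSMD9 starts at base 920.
PSMD9 from 851: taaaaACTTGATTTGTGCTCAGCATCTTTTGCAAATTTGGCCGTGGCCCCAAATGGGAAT
PSMD9 from 856: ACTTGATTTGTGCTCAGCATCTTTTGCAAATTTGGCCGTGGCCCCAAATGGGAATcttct
PSMD9 from 920: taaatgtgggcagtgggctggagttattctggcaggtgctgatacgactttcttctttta
PSMG4 from 134: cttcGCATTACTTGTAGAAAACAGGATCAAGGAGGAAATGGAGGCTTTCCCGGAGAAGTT
PSMG4 from 138: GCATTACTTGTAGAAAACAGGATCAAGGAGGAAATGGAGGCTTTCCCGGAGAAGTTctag
PSMD12 from 1288: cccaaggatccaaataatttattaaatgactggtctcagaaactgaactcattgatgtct
PSMC4 from 1090: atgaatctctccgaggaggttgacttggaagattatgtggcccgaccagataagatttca
PSMB1 from 373: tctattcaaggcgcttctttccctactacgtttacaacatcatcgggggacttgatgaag
PSMD3 from 1540: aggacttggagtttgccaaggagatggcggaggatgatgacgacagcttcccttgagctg
PSMA5 from 668: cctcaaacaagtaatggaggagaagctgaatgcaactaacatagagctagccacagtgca
PSMB10 from 785: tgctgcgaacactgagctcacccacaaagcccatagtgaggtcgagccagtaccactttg

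Of the 48 genes, 31 had 1 probe and 7 had 5, and for genes with several the probe with the highest mean level over the 6 arrays is reported. Levels are given as scaled signal, the scanner's background-subtracted and processed intensity divided so that 1000 equals each array's 75th percentile, taken over the 1765 probes that passed the background flag on every array. Before scaling that percentile was between 507 in AACM and 4390 in OI. A gene was taken as detected where the scanner software marked its reported probe as well above background. The regional labels were checked against marker genes. In the fetal arrays the cartilage collagen gene COL2A1 had 1962 in II, 3212 in OI and 42857 in EC. The joint surface lubricant gene PRG4 had 14542 in II, 10342 in OI and 18.2 in EC, and the interzone gene GDF5 was detected in II and OI but not in EC. COL2A1 was not well above background on any adult array, against the cartilage label, while the cartilage matrix genes ACAN and COMP were detected in all 3 zones. Of 11 cartilage markers on the array, 5 were detected in AACS, 4 in AACM and 4 in AACD. In II, OI and EC 7, 9 and 11 were detected. COL9A2, COL11A2, MATN1 and MATN3 were, like COL2A1, detected in no adult zone.

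Most proteasome genes were detected in the fetal regions, fewer in the superficial adult zone, and few deeper in adult cartilage. Among the adult arrays, 27 of 48 genes were detected in AACS, 5 in AACM and 5 in AACD. Among the fetal arrays, 38 were detected in II, 41 in OI and 42 in EC. As shares, proteasome genes stood at 56.2% in AACS, 79.2% in II, 85.4% in OI and 87.5% in EC, against 28.5%, 37.5%, 43.4% and 45.4% of all named genes in the same order. In AACM and AACD the proteasome share was 10.4% each, against 9.44% and 12.1% of all genes, so the excess over other genes seen on 4 arrays was not seen there. Among the 38 proteasome genes detected in every fetal region, 25 were also detected in AACS, or 65.8% against 60.5% of the 3865 such genes overall. Only 5 of the 38 were detected in AACM (13.2% against 21.4%) and 4 in AACD (10.5% against 27.6%). The lower overall brightness of the AACM and AACD arrays moved with these counts, and its part in them was not tested. Under the scanner's more lenient flag for signal over background, the counts were 17 of 48 in AACM and 16 in AACD. The share of all genes under that flag is not given, so these counts cannot be set against other genes.

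**Figure D1:**
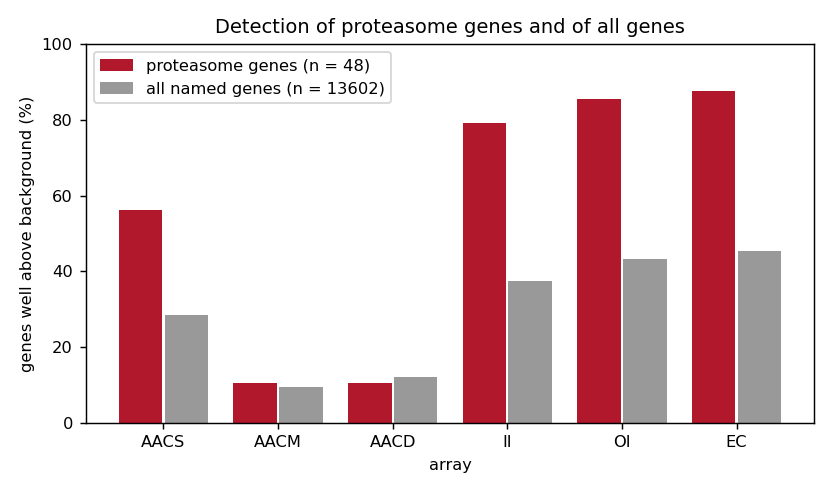
Share of genes well above background on each array, in percent, for the 48 proteasome genes (red bars) and for all 13602 named genes (grey bars). The red bars exceed the grey ones by far in AACS, II, OI and EC and are close to them, at 10.4%, in AACM and AACD.

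On all 6 arrays 2 proteasome genes were detected, which is 4.17% of the 48, against 4.18% of all named genes. PSMD7, a lid subunit that pairs with the deubiquitinase of the complex, had 4922 in AACS, 4300 in AACM, 1030 in AACD, 5000 in II, 5991 in OI and 5691 in EC. Its AACD value lies below the other 5, which span a narrow range. PSMD9, a chaperone of base assembly, had 12.2, 20.5 and 27.6 in AACS, AACM and AACD, and 51.7, 33.5 and 87.6 in II, OI and EC. Its 3 adult values all lie below its 3 fetal values, for this probe.

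On no array were 6 of the genes detected. They are PSMA8, an alpha subunit known from testis, the immunoproteasome subunits PSMB8 and PSMB9, PSMB11, known from thymus, PSMD14, the deubiquitinase of the lid, and PSME3, a nuclear activator. PSMD14 and PSME3 are widely expressed genes, so a probe that stays at background here does not show that the transcript was missing. PSMF1, which encodes a proteasome regulator, was detected only in EC, at 22.9. The remaining patterns were dominated by 19 genes detected in the 3 fetal regions and AACS, and by 12 detected in the 3 fetal regions alone.

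**Figure D2:**
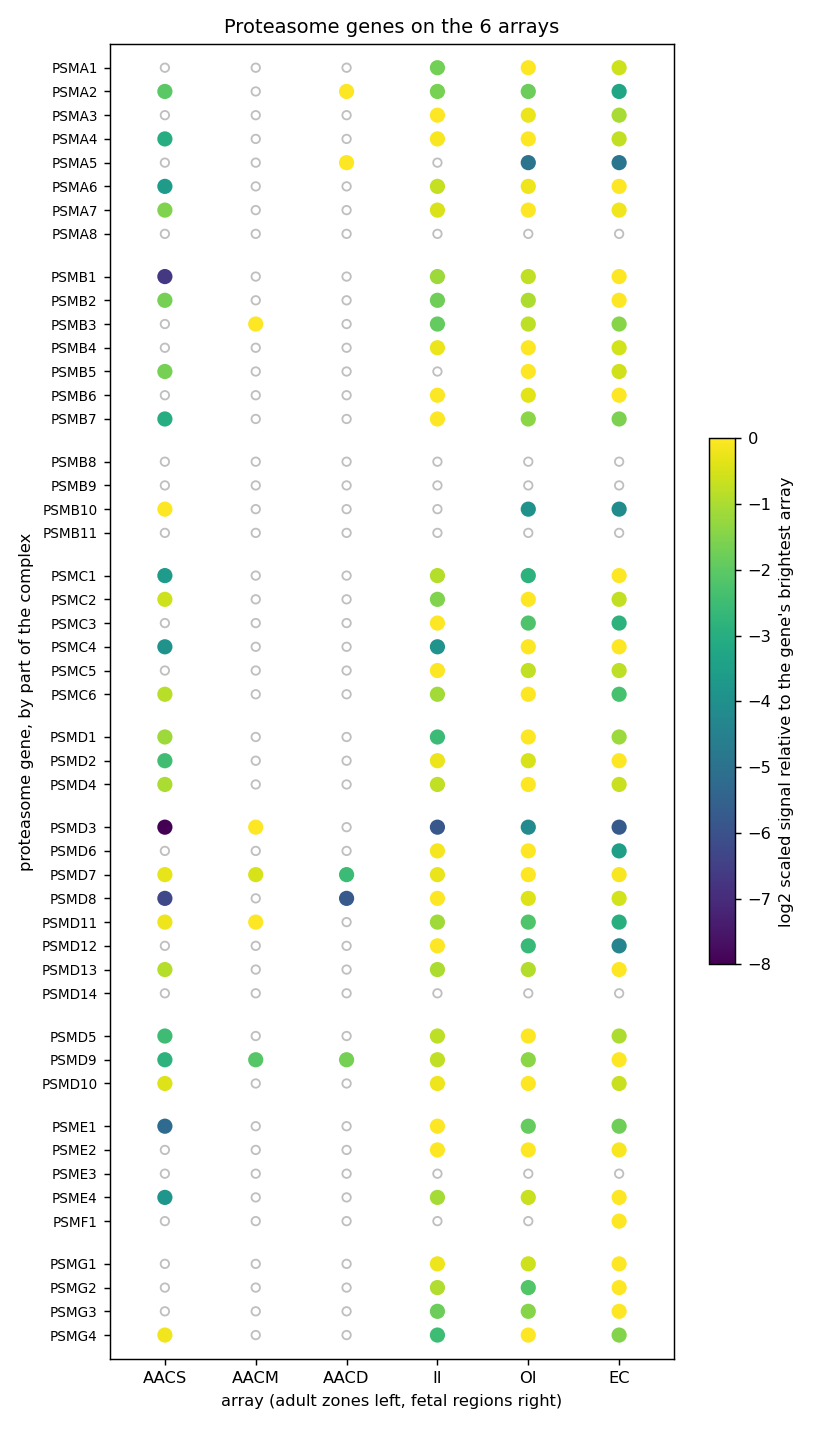
The 48 proteasome genes (rows, grouped by part of the complex) on the 6 arrays (columns, adult zones left). Filled points are well above background, coloured by the log2 scaled signal relative to the gene's own brightest array, and open grey points are not. Filled points run through the fetal columns and the AACS column, and only 5 stand in each of AACM and AACD.

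In the comparisons that follow, a difference is the log2 of one array's scaled signal minus that of the other, less the median difference of all genes detected on both arrays. A value of 0 is therefore the change of the median gene, and a gene is counted as higher or lower at a relative difference of 1 or more, which is 2-fold. Where a gene was detected on only 1 of the arrays, a lower bound of the fold against the detection limit is given. These bounds hold for the main processing only. None is given for the alternative background correction, under which folds that rest on dim signals were smaller. II and OI were both set against the same EC array, so their differences from EC are not independent.

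The first comparison asks how the interzone differs from the cartilage template next to it. In the intermediate interzone individual lid and base genes lay well above their EC level and others well below it. The shares of proteasome genes at least 4-fold apart were a little under those of all genes, but rest on 3 genes in each direction. That is too few to set them apart from other genes. Of 38 genes detected on both arrays, 14 were at least 2-fold lower in II than in EC and 7 were at least 2-fold higher. These are 36.8% and 18.4% of the 38, against 23.9% lower and 24.6% higher among all 4297 genes compared. The median proteasome difference was −0.51, with quartiles of −1.29 and 0.41, and a further 4 proteasome genes were detected in EC but not in II. These 4 are 9.52% of the 42 in EC, against 30.4% of all genes detected there. The SD between probes of one gene, pooled over all genes, was 0.54 in this comparison and the scanner's own spot error was 0.21, both on the log2 scale. At 4-fold, 3 proteasome genes were higher and 3 were lower (7.89% each), against 10.9% and 9.73% of all genes. The errors are technical, from 1 pair of samples and hold no spread between animals. Without subtracting the median gene the counts were 8 lower and 9 higher. With normexp, which models the background and lifts low signals, 9 of the 14 lower genes and 3 of the 7 higher ones still reached 2-fold.

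The largest increases in II were in lid and base genes. PSMD12, a scaffold subunit of the lid, had 147 in II, 24.1 in OI and 6.96 in EC. It was thus highest in II, with OI between, and the II minus EC difference was 4.04, or 16.5-fold. Its other probe, which starts at base 1348, gave 3.31, and normexp gave 1.98. PSMD6, also of the lid, had 105 in II, 114 in OI and 10.0 in EC. Both interzone layers were high, and the difference from EC was 3.02 in II (8.13-fold) and 3.42 in OI, or 1.54 and 2.31 with normexp. PSMC3, a base ATPase, had 205 in II, 43.5 in OI and 28.1 in EC, which is 2.51 higher in II than in EC (5.70-fold). These 3 genes stayed at least 2-fold higher in II under quantile normalisation, normexp, no subtraction of the median, the mean over probes and the inclusion of genes detected on only 1 of the arrays. The other 4 were PSMD11 of the lid at 1.44, the activator subunit PSME1 at 1.42, the alpha subunit PSMA2 at 1.28 and PSMB7, the subunit with trypsin-like activity, at 1.23, and with normexp each of these 4 was under 2-fold.

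Among the genes detected on both arrays, the largest decrease was in another base ATPase. PSMC4 had 17.0 in II, 253 in OI and 251 in EC, so II was low and OI and EC were alike, at a difference of −4.23 from EC (18.8-fold lower) and −2.93 with normexp. PSMG3, a chaperone of core assembly, had 45.8 in II, 58.8 in OI and 159 in EC, and it was 4.45-fold lower in II and 2.86-fold lower in OI than in EC. PSMB2, a beta subunit without catalytic activity, had 89.2 in II, 151 in OI and 302 in EC, which is 4.34-fold lower in II and 2.11-fold lower in OI. Both genes follow the same order, with EC highest and II lowest. The base subunit gene PSMD1 (−1.70), the beta subunit gene PSMB1 (−1.53) and PSME4 (−1.45), an activator, were lower as well, and with PSMC4, PSMG3 and PSMB2 they make up the 6 of the 14 genes that stayed at least 2-fold lower under those settings.

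By part of the complex, the group medians in II relative to EC ran from −1.34 for the core assembly chaperones, of which 3 of 4 were at least 2-fold lower, to 0.21 for the lid, of which 3 of 7 were higher and 1 was lower. The alpha ring had a median of −0.16 over 6 genes, the constitutive beta ring −0.62 over 6, the base ATPases −0.34 over 6 and the other base subunits −0.58 over 3. Of the ATPases, which assemble as 1 hexamer, 1 was higher (PSMC3) and 3 were lower, each gene on 1 probe. Of the 3 lower, PSMC4 stayed at least 2-fold lower in every setting named above. PSMC1 (−1.25) and PSMC2 (−1.13) were at −0.89 and −0.77 without subtracting the median. Among all genes compared, 24.6% were higher and 23.9% were lower. The core subunits PSMA5 and PSMB5 were detected in OI and EC but not in II. PSMA5, an alpha subunit, had 43.3 in OI and 46.4 in EC and was at least 15.4-fold lower in II than in EC. PSMB5, the subunit with chymotrypsin-like activity, had 58.5 in OI and 39.6 in EC and was at least 13.2-fold lower in II.

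In the outer interzone the proteasome genes lay closer to EC. Of 41 genes compared, 7 were at least 2-fold higher in OI than in EC and 5 were lower, or 17.1% and 12.2%, against 23.5% and 21.6% of 4786 genes, and the median was 0.11. At 4-fold there were 2 in each direction (4.88% each), against 9.95% and 9.05% of all genes. The pooled SD between probes was 0.50. PSMC6, a base ATPase, had 317 in OI and 63.0 in EC (2.25, 4.76-fold higher), and it had 146 in II. PSMC1, another ATPase, had 9.61 in OI and 69.1 in EC (−2.92, 7.59-fold lower), with 37.3 in II. PSMG2, a core chaperone whose probe lies on a locus that the gene table does not call PSMG2, had 8.63 in OI and 38.6 in EC (−2.24, 4.73-fold lower), with 20.0 in II. OI was thus the extreme of the 3 fetal regions for PSMC6 on the high side and for PSMC1 and PSMG2 on the low side. With normexp PSMC1 was at −1.70 and PSMG2 at −1.12. The lid had a median of 0.66, with PSMD6, PSMD12 and PSMD3 at least 2-fold higher (PSMD12 at 0.67 with normexp) and none of 7 lower, while the core assembly chaperones had a median of −1.10, with PSMG4 higher and PSMG2 and PSMG3 lower.

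**Figure D3:**
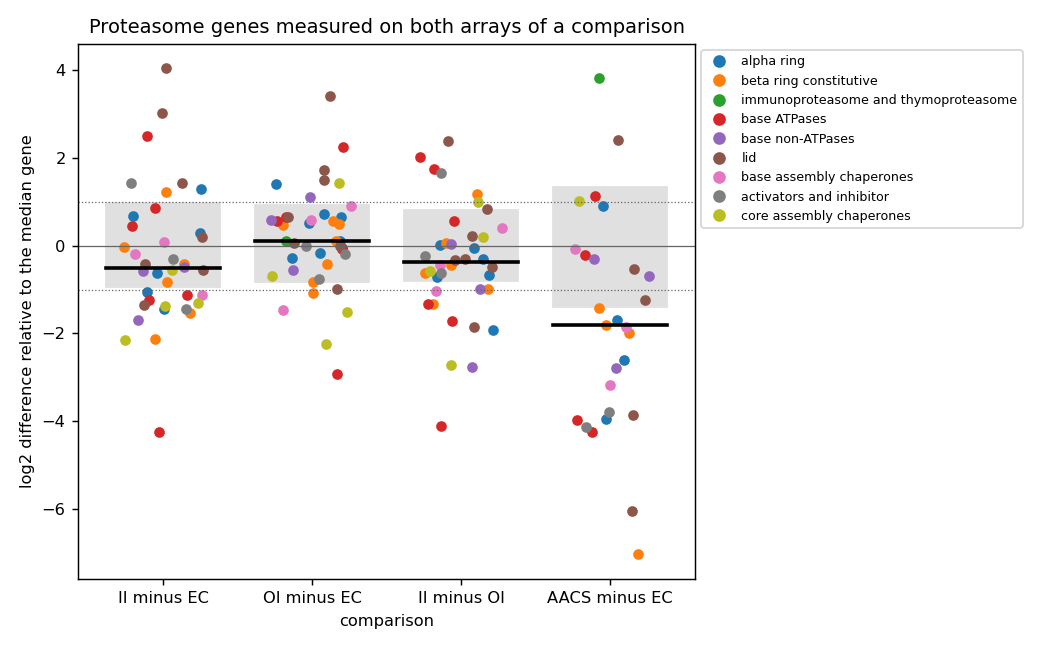
Log2 differences of proteasome genes relative to the median gene (vertical axis) in 4 comparisons. Each point is a gene coloured by its part of the complex, black bars are the proteasome medians (−0.51, 0.11, −0.38 and −1.81), grey boxes span the middle 50% of all genes compared, and dotted lines mark 2-fold. The AACS minus EC median lies under its grey box, and the fetal medians lie inside theirs.

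Set directly against each other, the interzone layers differed in single genes of the base, the lid and the core. The shares of proteasome genes at least 4-fold apart rest on 2 and 3 genes, too few to set them apart from other genes. Of 38 genes compared, 5 were at least 2-fold higher in II than in OI and 9 were lower, or 13.2% and 23.7%, against 21.3% and 21.2% of 4262 genes, with a median of −0.38 and a pooled SD between probes of 0.55. At 4-fold 2 were higher and 3 lower (5.26% and 7.89%), against 9.15% and 8.68% of all genes. A further 3 genes were detected in OI and not in II (7.32% of the 41 in OI, against 27.7% of all genes detected there), and of these PSMB5 was at least 17.6-fold and PSMA5 at least 13-fold lower in II. PSMC4 was lower in II by 17.2-fold and PSMD1, with 79.2 in II and 462 in OI, by 6.77-fold. PSMG4, a core chaperone, had 17.2 in II and 97.9 in OI (6.62-fold lower), and its 5 probes gave between −3.02 and −2.73. PSMD12 was 5.24-fold and PSMC3 4.06-fold higher in II, and PSME1, which pairs with PSME2 in an interferon-inducible activator, had 971 in II and 264 in OI (3.17-fold higher). PSME2 had 87.1 and 88.6, a relative difference of −0.24, so that the subunits of this pair did not differ alike. With normexp the II minus OI differences were −2.91 for PSMC4, −1.60 for PSMG4, 1.52 for PSMD12, 1.34 for PSMC3 and 1.12 for PSME1. For the 38 genes detected in all fetal regions, log2 scaled signals were set relative to each array's median over the 3865 such genes overall. The lowest of the 3 relative values lay in II for 19 genes, in OI for 10 and in EC for 9. For II that is 50% of the proteasome genes, against 33.7% of the 3865 genes detected on all fetal arrays. Some markers of other cell types were highest in II, and others were not. The haemoglobin gene HBB had 199 in II, 14.7 in OI and 40.3 in EC, and the macrophage gene AIF1 had 194 in II, 25.3 in OI and 19.6 in EC. The muscle gene MYL1 had 92.5 in II, 3.60 in OI and 37.7 in EC, and TPM2 had 467, 92.0 and 229. The macrophage gene CD68 was highest in OI, at 123, with 52.5 in II and 51.8 in EC. The muscle gene TNNT1 was alike in II and EC, at 60 and 61.8, with 40.5 in OI. DES and TNNT3, also of muscle, were detected in EC alone, at 49.4 and 16.7. Of 7 muscle markers on the array 4 were detected in II, 4 in OI and 6 in EC, with summed scaled signals of 1065, 503 and 649.98, and of 5 blood and endothelium markers HBB alone was detected in each. Of 8 immune markers 5 were detected in each, with sums of 57765, 31368 and 29824. These sums lay almost wholly on the probe annotated as PTPRC, at 57500, 31207 and 29742. CD74, TYROBP, CD14, PECAM1 and CDH5 were not above background on any array. The part of these cell types in the II differences was not tested.

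The comparison of superficial adult cartilage with EC spans permanent and transient cartilage, and here the proteasome genes lay mostly below EC. Of 27 genes detected on both arrays, 17 were at least 2-fold lower in AACS and 4 were higher. These are 63.0% and 14.8%, against 31.0% lower and 30.3% higher among 3014 genes compared. The median proteasome difference was −1.81, with quartiles of −3.82 and −0.26. At 4-fold, 11 proteasome genes were lower and 2 were higher (40.7% and 7.41%), against 17.3% and 18.0% of all genes. A further 15 proteasome genes were detected in EC and not in AACS, and none the other way round. The 15 are 35.7% of the 42 detected in EC, against 51.2% of all genes detected there, and 22.3% of all genes detected in AACS were not detected in EC. The pooled SD between probes was 0.72. The median lay between −2.63 and −1.44 over the other processing settings, and 15 of the 17 lower genes stayed at least 2-fold lower with normexp. When genes detected on only 1 of the arrays entered the median that is subtracted, 10 of the 17 did, and PSMA7, PSMB5 and PSMD13 changed sign to 0.046, 0.31 and 0.51. Stage and slide cannot be told apart in this comparison.

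In the core, 7 of the lower genes were alpha or beta subunits and none of the constitutive ones was at least 2-fold higher. PSMB1 had 5.55 in AACS and 578 in EC (−7.04, 131-fold lower), and 256 in II and 342 in OI. AACS was far under all fetal regions, close to the lowest signal taken as above background there, 3.22, and normexp gave −4.67. PSMA6 had 12.3 in AACS and 151 in EC (15.4-fold lower), and PSMA4 had 363 in AACS and 1766 in EC (6.13-fold lower). With normexp PSMA6 was at −2.49. PSMA2 was the alpha subunit that was not lower, at 236 in AACS and 100.0 in EC (0.90). The catalytic genes fell on either side of detection: PSMB5 had 18.5 in AACS (2.69-fold lower than in EC) and PSMB7 157 (3.50-fold lower), while PSMB6, the subunit with caspase-like activity, was not detected in AACS and was at least 139-fold lower. PSMB4 was at least 189-fold lower, at 485 in EC.

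The immunoproteasome gene PSMB10 went the other way. It had 106 in AACS, 6.83 in OI and 6.0 in EC and was not detected in AACM, AACD or II, and AACS exceeded EC by 3.82 (14.1-fold), or 1.97 with normexp. Its EC level was near the lowest signal taken as above background on that array, 2.19. The other immunoproteasome genes PSMB8 and PSMB9 and the peptide transporter genes TAP1 and TAP2, which act with them in antigen presentation, were not detected on any array. B2M, the light chain of the class I molecule, had 1281 in AACS and 49.9 in EC (4.35). Of 8 immune cell markers on the array, 4 were detected in AACS and 5 in EC, with summed scaled signals of 25255 and 29824 that lay almost wholly on the probe annotated as PTPRC, which ran from 21302 in AACM to 57500 in II. The part of other cell types in the PSMB10 difference was not tested.

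In the regulatory particle the base and lid held both directions. PSMC4 had 16.8 in AACS and 251 in EC (18.8-fold lower) and PSMC1 had 5.51 and 69.1 (15.8-fold lower), while the ATPases PSMC2 and PSMC6 had 114 and 174 in AACS against 105 and 63.0 in EC, differences of −0.22 and 1.13. The PSMC6 difference was 0.41 with quantile normalisation, under 2-fold. PSMC3 and PSMC5 were not detected in AACS, and PSMC5 was at least 104-fold lower. Of the lid genes, PSMD8 had 7.62 in AACS and 398 in EC (−6.04, 65.8-fold lower) and PSMD3 had 5.66 and 64.9 (14.4-fold lower). With normexp the log2 differences were smaller, at −1.84 for PSMC1, −1.83 for PSMD3, −3.89 for PSMD8 and −2.98 for PSMC4. PSMD11, a lid scaffold that in human cells limits assembly of the capped complex, had 1074 in AACS and 162 in EC (2.40, 5.27-fold higher), and its 3 probes gave between 1.43 and 2.40. PSMD7 differed from the median gene by −0.54. The ubiquitin-binding subunit PSMD4 (41.4 in AACS, 53.4 in EC) and PSMD1 (205 and 201) were within 2-fold, though PSMD1 was at −1.30 with quantile normalisation, while PSMD2, the scaffold that docks shuttle proteins, was 6.87-fold lower.

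Both activator genes that could be compared were lower in AACS, PSME4 at 32.6 against 454 in EC (17.5-fold) and PSME1 at 25.8 against 283 (13.8-fold), and PSME2 was not detected in AACS. With normexp PSME4 was at −3.33 and PSME1 at −2.83. Of the core assembly chaperones, PSMG1, PSMG2 and PSMG3 were detected in each fetal region but not in AACS, PSMG3 being at least 62.3-fold lower than in EC. PSMG4 had 87.9 in AACS and 34.7 in EC, a difference of 1.01 at the 2-fold limit that was 0.73 with normexp and 0.45 with quantile normalisation. Among the chaperones of base assembly PSMD10 did not pass 2-fold (−0.08), while PSMD9 (−3.18) and PSMD5 (−1.85) were lower, although PSMD5 was at −0.52 with normexp.

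**Figure D4:**
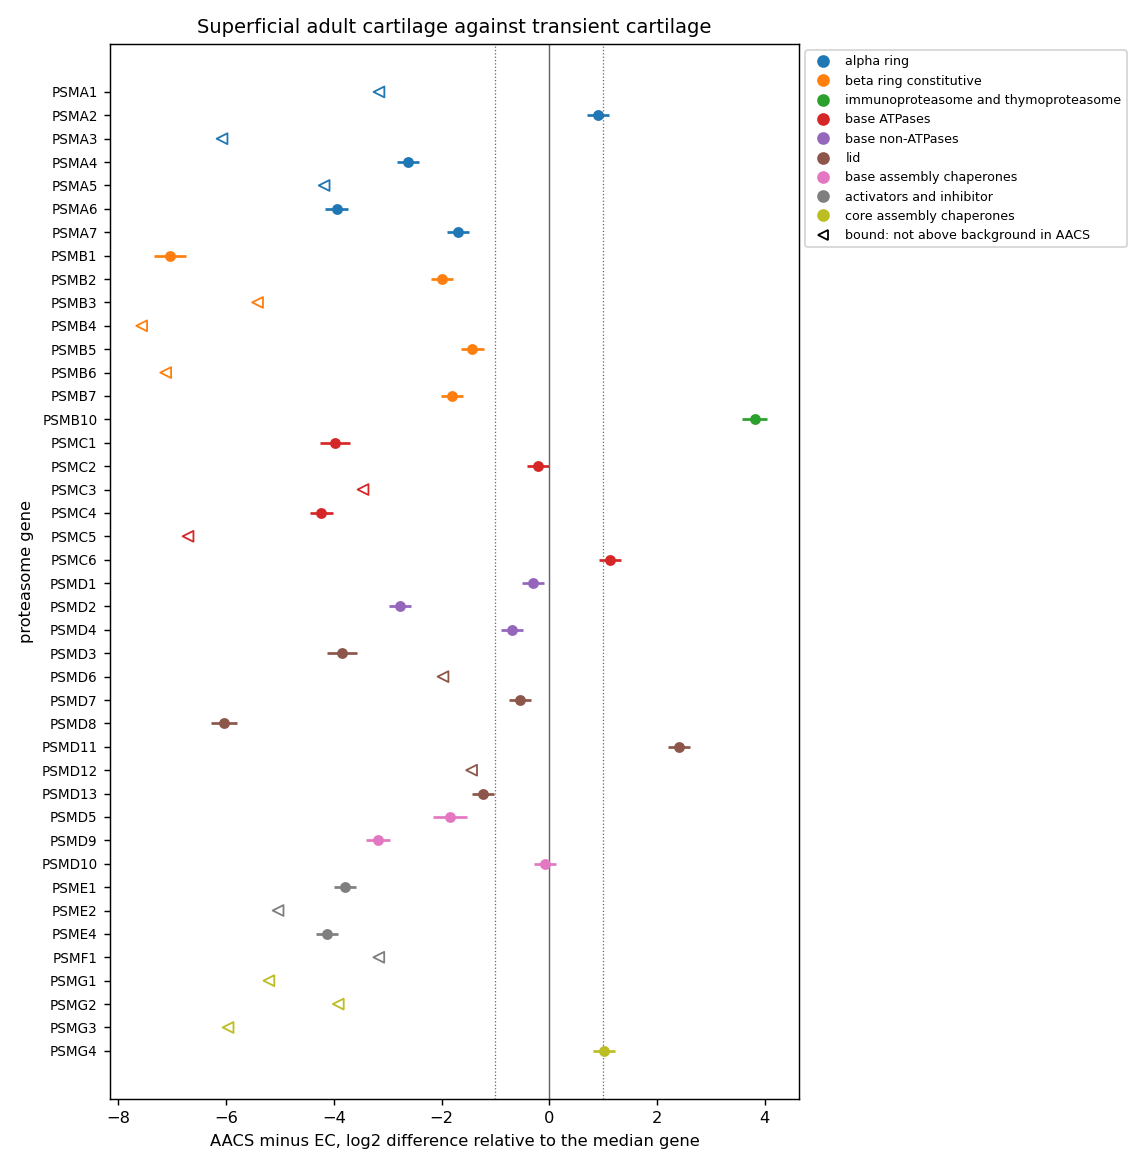
Log2 difference, AACS minus EC, relative to the median gene (horizontal axis) for each proteasome gene detected on at least 1 of these arrays, coloured by part of the complex. Filled points carry the scanner's spot error, open triangles are bounds for genes not detected in AACS, and dotted lines mark 2-fold. Points and triangles lie mostly left of 0, and PSMB10 and PSMD11 stand farthest to the right.

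Within adult cartilage few proteasome genes were detected in more than 1 zone. AACS had 23 proteasome genes detected that were not detected in AACM, and AACM had 1, PSMB3, not detected in AACS. These are 85.2% of the 27 detected in AACS and 20.0% of the 5 in AACM, against 74.6% and 23.3% of all genes detected there. The largest bound was 66.9-fold for PSMA4, and PSMD5 was given no fold. Among the 4 genes detected in both, 2 were at least 2-fold higher in AACS and 1 was lower, against 31.9% and 23.0% of 985 genes. At 4-fold PSMD3 alone was lower and none was higher, against 10.8% and 19.3% of all genes. These 985 genes had a median difference of −1.52 before it was subtracted, and the pooled SD between probes was 0.97. PSMD3 had 5.66 in AACS, 3550 in AACM and a signal not above background in AACD, against 62.1 in II, 195 in OI and 64.9 in EC. AACM was thus far above every other region for the 1 probe of this lid gene, and the AACS minus AACM difference was −7.77, or −4.94 with normexp. PSMD7 (1.71) and PSMD11 (1.31) were higher in AACS relative to the median gene, but without subtracting the median they differed by 0.19 and −0.21. PSMB3, a beta subunit, had 296 in AACM, above its 78.8 in II, 170.4 in OI and 109 in EC. Another probe with the PSMB3 name belongs to a different locus and was above background in AACD alone, at 12.8.

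Against the deep zone, AACS again had 23 proteasome genes that were not detected in AACD, and AACD had 1, PSMA5, not detected in AACS, against 68.0% of all genes detected in AACS and 24.4% of those detected in AACD. PSMA5 was not above background in AACS, AACM or II and had 1347 in AACD, against 43.3 in OI and 46.4 in EC. Its other probe, which starts at base 729, had 526 in AACD, 17.9 in OI and 13.6 in EC, so both probes were brightest in AACD, and the reported one was at least 235-fold lower in AACS. Of 4 genes compared, 1 was higher in AACS (PSMD7, 3.09) and 1 was lower (PSMA2, −1.21), against 27.7% and 24.4% of 1241 genes, and at 4-fold PSMD7 alone was higher and none was lower, against 16.2% and 11.8%. PSMA2 had 236 in AACS and 969 in AACD, and AACD was its highest region. Its difference was −0.74 with normexp and −0.41 with quantile normalisation, so that the call depended on the processing. The PSMD7 difference was 0.21 when genes detected on only 1 of the arrays entered the median. PSMD11, at 1074 in AACS and 1243 in AACM, was not detected in AACD and was at least 222-fold higher in AACS.

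Between the middle and deep zones only 2 proteasome genes could be compared, PSMD7 higher in AACM (1.27) and PSMD9 lower (−1.22, and −0.30 with normexp), against 15.7% higher and 20.9% lower among 802 genes. Neither reached 4-fold, which 5.61% and 11.2% of those genes did. The 3 genes PSMB3, PSMD3 and PSMD11 were detected in AACM and not in AACD, and 3 (PSMA2, PSMA5 and PSMD8) in AACD and not in AACM. That is 60.0% of the 5 genes detected in each zone, against 37.5% of all genes in AACM and 51.1% in AACD. Over all 3 adult against all 3 fetal arrays, the same 2 genes were at least 2-fold lower in adult cartilage, PSMD7 at −1.53 and PSMD9 at −2.03, against 26.4% of 569 genes lower and 24.3% higher. At 4-fold PSMD9 alone was lower, against 12.7% of those genes lower and 10.5% higher. Without AACD, PSMD7 was at −0.89 and PSMD9 at −2.37, and of the 4 genes that could then be compared 1 was lower and 1 was higher. With normexp PSMD9 was at −0.91, and when genes detected on only some of the arrays entered the median, PSMD7 and PSMD9 were at −0.23 and −0.72.

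Genes that work with the proteasome but carry other symbols were read from a list of 9. Their median was −0.83 in II and −0.86 in OI relative to EC, over 7 genes each, with 3 lower in II, and 1 higher and 2 lower in OI. PAAF1, a chaperone of base assembly, had 5.42 in II, 86.1 in OI and 33.5 in EC (−2.98 in II and 1.28 in OI), the same order of regions as PSMG4. SEM1, the small lid subunit, had 7.15 in AACS and 224 in EC (−5.30), and POMP, the maturation factor of the core, had 652 in AACS and 555 in EC (−0.10). POMP was also detected in AACD, at 3367, and not in AACM. ECPAS, an adaptor of the proteasome, was detected on all 6 arrays and was lower in AACS than in EC (−2.40). TXNL1, also on this list, was higher in AACS than in EC (3.45). The 5 listed genes compared between AACS and EC had a median of −0.83, with 1 higher and 2 lower. Of 11 ubiquitin and shuttling genes on the array, 7 were compared between AACS and EC and had a median of 0.05, with UBQLN4 (3.22) and NFE2L2 (1.10) higher and VCP (−1.26) lower. NFE2L2 encodes a transcription factor that in other species raises proteasome genes.

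For 13 to 15 genes in each fetal comparison, several probes were detected and could be set side by side. Their signs differed for 3 genes in II minus EC and for 1 gene each in OI minus EC, II minus OI and AACS minus EC. PSMD9 in II minus EC was the 1 gene in which probes of opposite sign included a 2-fold difference. Its reported probe from base 920 gave −1.12, whereas the 4 overlapping probes from bases 851 to 856, of which the first and last are printed above, gave up to 1.36. The probe from base 851 had 133 in II, 19.4 in OI and 40.5 in EC and was not above background on any adult array, while the probe from base 920 was above background on every array. PSMD5 had a similar gap in size, −0.19 and −2.50 in II minus EC for probes from bases 1610 and 1680. The 5 PSMG4 probes, which overlap nearly in full, and the 4 PSMD13 probes each ran nearly in parallel over the arrays. Probes that overlap share most of their sequence and are not independent measurements.

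**Figure D5:**
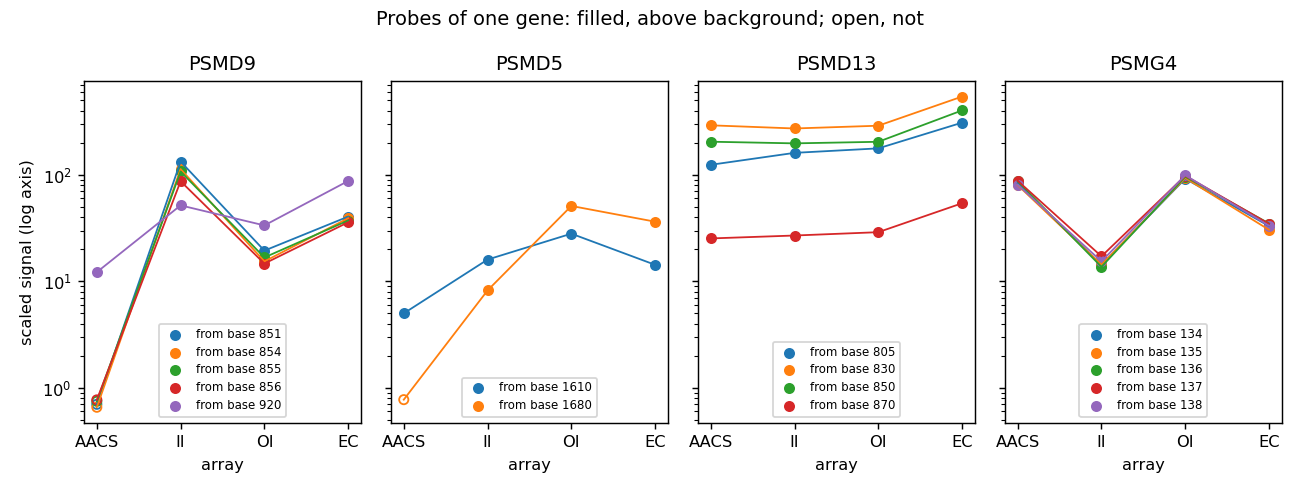
Scaled signal (log axis) of every probe of PSMD9, PSMD5, PSMD13 and PSMG4 in AACS, II, OI and EC, with the probe's start in the transcript in the legend. Filled points are above background and open points are not. The PSMD9 probe from base 920 crosses the other 4, and the probes of PSMD13 and PSMG4 run in parallel.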

How the data were processed

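Total RNA from laser-captured tissue of 6 regions, 1 array each, was amplified, labelled with Cy3 and hybridised, per the labels' protocols. The deposited scanner files hold intensity values (background-subtracted processed signal) that, per the file headers, came from Agilent Feature Extraction 10.7.3.1. The deposited series table holds signal values that, set against the scanner files, equal the processed signal over the median of its array, and it served as an alternative. Control and outlier spots were left out, spots of a probe were averaged on the log2 scale, and arrays were scaled to the 75th percentile over 1765 probes detected on all arrays. Probes were named through the array's annotation and a RefSeq gene table. The 1 array per group limits the precision.

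A gene entered a comparison where the software's flag put its reported probe over background on each array compared. The median difference of all genes compared was subtracted, and calls were made at 2-fold. No test was made, since each region has 1 array and the regions of a stage are different tissues, not replicates. Each member gene may be named. The members and lists were chosen with earlier results of these data known. Alternatives were quantile normalisation, normexp with an offset of 50 (limma 3.58.1 in R 4.3.3), all probes for the percentile, the series table, no subtraction of the median, the mean over probes, detection on at least 1 array, a 4-fold limit, another detection flag and leaving out each array. Python 3.11.15 was used, and the calling step was tested on simulated data. Marker lists of blood and endothelium and of muscle were also read: of 5 and 7 genes on the array, 0 and 2 could be compared between AACS and EC, and of 7 interzone markers 2.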

Additional observations from a re-analysis of the deposited data

How the results depend on the processing

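The AACS minus EC median was −2.63 with quantile normalisation, and 2 genes were then higher; with detection on at least 1 array 10 were higher. At the 4-fold limit, the counts of higher and lower genes were 3 and 3 for II minus EC, 2 and 2 for OI minus EC, 2 and 3 for II minus OI, and 2 and 11 for AACS minus EC. At that limit AACS minus AACM had 0 higher, AACS minus AACD had 0 lower, AACM minus AACD had 0 in either direction, and adult minus fetal had 1 lower. For II minus EC, normexp left 3 higher genes and no subtraction of the median gave 8 lower and 9 higher. For OI minus EC there were 8 lower genes with quantile normalisation and 3 with normexp. For AACS minus AACM the median reversed to −0.48 without subtraction, with 0 genes higher and PSMD11 at −0.21. With detection on at least 1 array that comparison had 15 higher and 9 lower genes, and PSMD7 and PSMD11 reversed to −1.86 and −2.27. For AACS minus AACD, 0 genes were lower with quantile normalisation or normexp and 2 without subtraction; with detection on at least 1 array the median was 2.38, with 17 higher and 7 lower. For AACM minus AACD, 0 genes were lower with quantile normalisation, normexp or no subtraction, and with detection on at least 1 array 4 were higher and 2 lower. PSMA7, PSMB5 and PSMD13 reversed in AACS minus EC with detection on at least 1 array (0.046, 0.31 and 0.51), where the median subtracted is that of a wider set of genes. PSMD9 in II minus EC reversed to 0.70 as the mean over its probes. The adult minus fetal median was −2.72 with quantile normalisation, −1.39 with normexp (1 gene lower), −1.24 without subtraction (1 lower) and −3.60 with detection on at least 1 array (2 higher, 33 lower). In this last setting, in every comparison, genes not detected on an array enter with their background-level signal there. No share of all genes is given beside its counts, so they are not read as a result about proteasome genes. Leaving out each array in turn moved that median between −2.06 and −0.45, the higher count between 0 and 1 and the lower count between 1 and 3, with the extreme median without AACD. The lenient detection flag gave 17 genes in AACM and 16 in AACD, with no share of all genes to set beside them. Where no cause is named above, the cause was not tested. Among single-gene differences 7 reversed, as named above, and 119 moved beyond the limits set for a change. Of those that moved, 42 did so with normexp, 34 with quantile normalisation and 32 with detection on at least 1 array. The values that stayed within the limits were 112 counts, 54 medians and 978 single-gene differences. Of these, 4 medians and 40 single-gene differences changed sign, and those medians are all of AACS minus AACD, between −0.83 and −0.00079 against 0.0026 as reported.

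No paired analysis was possible because each region has 1 array and no replicate number is shared in a way that pairs samples. Dim signals limit the results: AACM and AACD had few genes above background, low probes carry folds that shrink with the background model, and most genes rest on 1 probe. The probe annotated as PSMG2 lies on a locus that the gene table does not call PSMG2.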
